A study of Mus musculus with 12 samples.

Results

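Doxycycline chow was compared with normal chow in mouse tibialis anterior muscle that carried a doxycycline-inducible Dux vector. The comparison took 6 of the 12 RNA-seq libraries of the series, named by their vector and chow: DUX_DOX 1 to 3 (Dux vector, doxycycline chow) against DUX 1 to 3 (Dux vector, normal chow), with all genes described. The tissue donors were C57BL/6 males, injected in the muscle at 8 weeks of age. Both groups received the AAV:TET and AAV:Dux vectors together, stayed on standard chow for 7 days, and then differed in chow alone, which held 600 mg/kg doxycycline for DUX_DOX. The labels name 2 or 7 days of doxycycline without saying which applies here. The opposite limb received AAV:TET with the empty vector AAV:MCS, and its libraries on normal chow (EV) and doxycycline chow (EV_DOX), 3 each, served as background. The labels do not name the promoter of the transgene, the cells that express it, or whether the libraries of a group came from separate animals, so p-values measure the spread between libraries.

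Dux is a double-homeobox transcription factor that is active for a short time in the early cleavage embryo, where it switches on genes such as the Zscan4 zinc finger cluster, and it is silent in adult muscle. It is the mouse counterpart of human DUX4, whose misexpression underlies facioscapulohumeral muscular dystrophy. The series title links Dux to myopathy through myostatin and Smad signalling. Myostatin restrains muscle growth by binding activin receptors, which phosphorylate Smad2 and Smad3. Adult muscle answers damage with chaperones that hold unfolding proteins, repair proteins that gather at torn sarcomeres, and macrophages that clear debris. The same tissue holds vessels, nerve, tendon and fat, and from bulk RNA fewer cells of a type and less RNA per cell cannot be told apart.

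The deposited counts summed to between 11880593 (DUX_DOX 3) and 13811999 (DUX 1) per library. Levels are given as CPM (counts scaled to a common library size) after scaling with TMM factors, which were 0.916 to 0.997 in DUX and 1.02 to 1.12 in DUX_DOX. The 10 most abundant genes took 29.8 to 32.4% of the counts in DUX and 26.5 to 27.8% in DUX_DOX. The defining genes of skeletal muscle were high in every library: Ckm, muscle creatine kinase, lay at 18685, 19788 and 18239.8 CPM in DUX and 16614, 13735 and 16011 CPM in DUX_DOX. On the first principal component, which held 55.3% of the variance, the DUX_DOX libraries scored 47.1 to 57.5 and the other 9 libraries -23.2 to -13.3.

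Of 12751 genes tested, 3772 differed between DUX_DOX and DUX at an adjusted p under 0.05 (edgeR's quasi-likelihood test, Benjamini-Hochberg), a background of 29.6% against which every group below is read. Higher in DUX_DOX were 2101 genes (16.5% of those tested) and lower were 1671 (13.1%). The rises were larger than the falls: 594 genes (4.66%) rose and 152 (1.19%) fell by more than 2-fold, and 82 rose and 1 (Zfp750) fell by more than 8-fold. The 82 include genes with 0 to 3 counts in DUX, whose fitted folds depend on the prior count. Such genes entered the deposited table only through DUX_DOX, so the counts over 8-fold do not compare the directions evenly. In 3308 genes (25.9%) all DUX_DOX libraries lay above all DUX libraries, and in 2882 (22.6%) all lay below. Levels differed between the directions. Of 159 genes with a mean of 500 CPM or more, 47.2% fell and 6.92% rose, while of 1564 genes under 2 CPM 4.60% fell and 12.7% rose. The class under 2 CPM also holds genes that entered only through DUX_DOX, so its shares do not compare the directions evenly. Scaling to library totals alone, without TMM factors, raised the median log2 fold change of all genes from 0.01 to 0.19 and called 3536 genes higher and 767 lower, so 82.2% of calls were rises there against 55.7% with TMM factors. Fold changes below are relative to the TMM scaling.

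**Figure D1:**
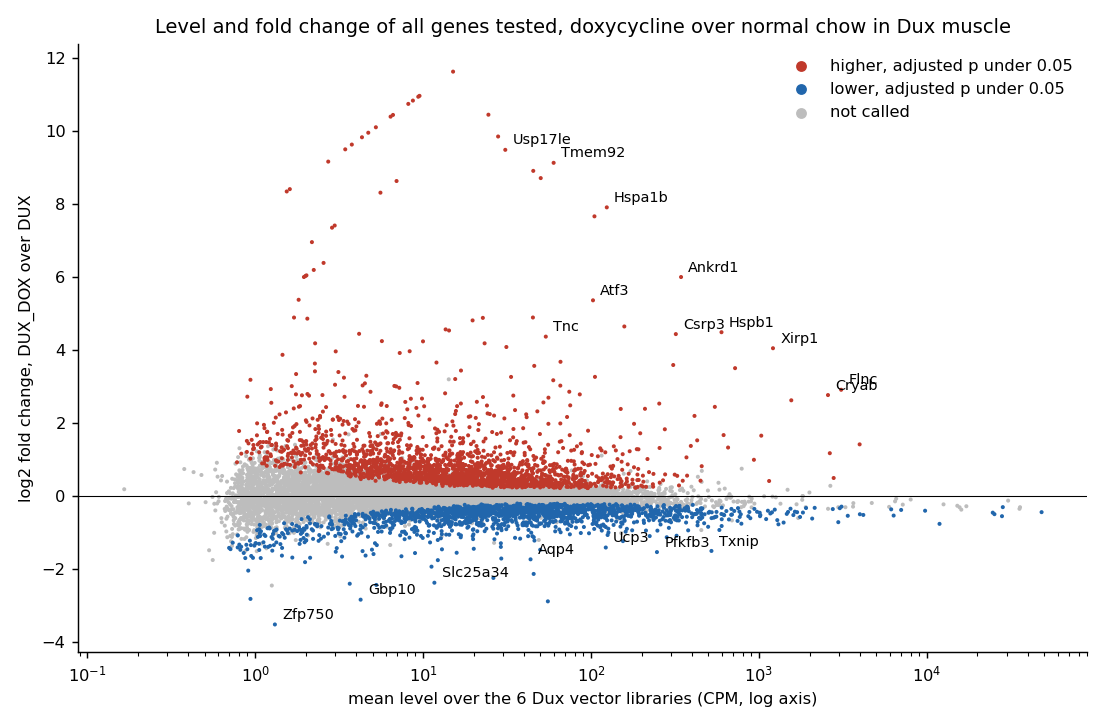
Each point is 1 of 12751 genes, placed by its mean level over the 6 Dux vector libraries (CPM, log axis) and by the log2 fold change of DUX_DOX over DUX. Red points passed the test as higher (2101 genes), blue as lower (1671 genes), and the rises reach farther from 0 than the falls; the streaks at upper left are genes with few or no counts in DUX, whose fitted value depends on the prior count.

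Genes that were silent without doxycycline included those of the cleavage embryo. Counts of Dux were not used here. The transcript AW822073 near the Dux locus (GRCm38 chromosome 10, 58222972 to 58224930, minus strand, protein-coding) was described instead, and whether its reads come from the delivered vector was not tested. Its counts were 0, 1 and 2 in DUX 1 to 3 and 37, 60 and 46 in DUX_DOX 1 to 3, a ratio of 46.5 (95% counting interval 15.6 to 228). The lowest DUX_DOX library held far more than all DUX libraries together. The Zscan4 genes lie in a cluster on chromosome 7, and the 250 bases before the start sites of Zscan4c and Zscan4d are shown since both hold the Dux motif, searched on either strand as TGATT, any 2 bases, then ATCA. The third sequence is that of Ppp1r15a, a stress gene described below, which holds the cyclic AMP response element TGACGTCA, found in 1 of 22 integrated stress response genes with a promoter entry against 3.61% of the symbols tested here (2.03% of all with an entry). Sequences are from RefSeq on GRCm38.p6, printed 5′ to 3′ on the gene's strand with the motif in capitals, from chr7:11005495-11005744 (plus), chr7:11166149-11166398 (minus) and chr7:45526269-45526518 (minus).
Zscan4c: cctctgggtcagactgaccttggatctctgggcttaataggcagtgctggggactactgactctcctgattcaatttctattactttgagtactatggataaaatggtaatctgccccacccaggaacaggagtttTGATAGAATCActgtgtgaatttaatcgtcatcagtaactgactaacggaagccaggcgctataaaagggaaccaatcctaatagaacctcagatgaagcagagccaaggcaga
Zscan4d: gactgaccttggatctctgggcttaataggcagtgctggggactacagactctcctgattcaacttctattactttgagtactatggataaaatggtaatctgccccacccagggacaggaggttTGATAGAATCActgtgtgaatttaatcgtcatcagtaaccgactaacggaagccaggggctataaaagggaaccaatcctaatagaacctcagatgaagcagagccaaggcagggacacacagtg
Ppp1r15a: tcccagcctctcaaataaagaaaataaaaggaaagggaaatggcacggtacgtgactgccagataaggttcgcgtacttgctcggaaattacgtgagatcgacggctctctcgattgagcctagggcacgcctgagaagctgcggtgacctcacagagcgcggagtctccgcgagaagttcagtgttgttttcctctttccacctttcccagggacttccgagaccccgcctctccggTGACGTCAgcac

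The motif begins 114 bases before the start site of Zscan4c and 125 before that of Zscan4d, and over the 239 bases that align without gaps the promoters share 97.1% of their letters. How reads that map to several genes of this family were counted is not given in the sources used here, so values of single members are uncertain. Of 18 measured symbols on a list of Dux targets, 10 had a promoter entry, and 4 of these (Zscan4b, Zscan4c, Zscan4d, Zscan4f) held the Dux motif. Among 27025 symbols with an entry the share was 0.244%. All 4 are related genes of the same cluster and do not count as separate observations. The shares therefore cannot show whether the motif is more common among Dux targets, and this was not tested.

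Zscan4c was at 0 counts in all DUX libraries and at 21.6, 37.3 and 31.6 CPM in DUX_DOX, which is at least 394-fold higher when 3 counts over the 3 DUX libraries are taken as the limit of a count of 0. By that limit the rise was at least 248-fold for Zscan4d and at least 227-fold for Zscan4f, each read at the more abundant of 2 gene identifiers with that symbol. Usp17le, of the Usp17-like deubiquitinase family, had 3 counts in DUX and 2486 in DUX_DOX, a ratio of 808 (counting interval 276 to 3919). Rfpl4b, a RING-finger gene, had 2 and 2258 counts, a ratio of 1100 (304 to 9091). Tmem92, a transmembrane protein gene, was at 0.158, 0.154 and 0.299 CPM in DUX and 85.6, 167 and 106 in DUX_DOX (log2 fold change 9.12, SE 0.39, adjusted p = 2.09e-09). DUX_DOX 2 was highest of its group for AW822073, Zscan4c, Usp17le (53.9, 79.4 and 51.7 CPM) and Tmem92. Such genes entered the deposited table only through DUX_DOX, so their number is no measure of how many targets responded. Members with a level in uninduced muscle did not share the rise: Zfp750, an epidermal zinc finger factor, fell (3.32, 1.77 and 2.17 CPM against 0.381, 0.0715 and 0.155 CPM; log2 fold change -3.53, SE 0.61, adjusted p = 0.00064), Gabpb2 fell by 0.41 on the log2 scale (a call lost in some runs with 1 library left out, at an adjusted p of 0.0549 to 0.0664 without DUX 3 or DUX_DOX 3), and Sp110, Alyref2 and Pramef8 were not called.

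Small heat shock proteins, chaperones that keep damaged proteins from clumping, rose. Of 8 small heat shock protein genes with their partner Bag3, 7 rose and 0 fell, with a median log2 fold change of 1.63 against 0.01 for all genes. Hspb1, which holds unfolding proteins and binds actin filaments, was at 44.6, 58.7 and 50.6 CPM in DUX 1 to 3 and 1239, 1141 and 1055 CPM in DUX_DOX 1 to 3 (log2 fold change 4.48, SE 0.12, adjusted p = 1.33e-11). Its groups were far apart, and the DUX_DOX libraries lay within a narrow band. Cryab, the alpha-B crystallin of the Z-disc, was at 688, 742 and 563 CPM and 4693, 4191 and 4582 CPM (log2 fold change 2.76, SE 0.16, adjusted p = 4.44e-08). Hspb7 rose by 2.61 and Hspb8, the partner of Bag3 in the removal of damaged filamin, by 1.66, while Hspb6 was the exception at 0.09. Summed over the list, the level went from between 2917 and 4007 CPM to between 10883 and 12608 CPM.

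The Hsp70 and Hsp90 system had 16 of 29 genes higher and 0 lower, with a median of 0.39. Hspa1b, a stress-inducible Hsp70, was nearly silent at 0.395, 1.39 and 1.27 CPM in DUX and reached 325, 285 and 132 CPM in DUX_DOX (log2 fold change 7.90, SE 0.38, adjusted p = 5.35e-09), and its neighbour Hspa1a reached 269, 241 and 116 CPM (log2 fold change 7.66). For both, DUX_DOX 3 was the lowest of its group yet above every DUX library. Hspa1a and Hspa1b are near-identical copies, so their split is uncertain. Hsp90aa1, the inducible Hsp90, rose by 3.26, Dnajb1 by 2.47 and the constitutive Hspa8 by 0.98. Hsf1, the main heat shock factor, was not called at -0.08. The heat shock element, searched on either strand as GAA, TTC and GAA with any 2 bases between each, stood in 3 of 24 promoter entries of this list, against 0.662% of all symbols: Hsph1, which rose by 0.84, and Chordc1 and Dnajb6, which were not called (0.26 and -0.26). In the cytosolic chaperonin, which folds actin and tubulin, 3 of 8 subunits rose, by 0.48 (Cct3), 0.25 (Cct2) and 0.25 (Cct4). When 1 of the 6 libraries was left out in turn, the call of Cct3 held in every run and calls were lost for Cct2 at an adjusted p of 0.0547 without DUX 3 and Cct4 at 0.0782 to 0.116 in all 6 runs. DESeq2's Wald test did not call Cct4 either.

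**Figure D2:**
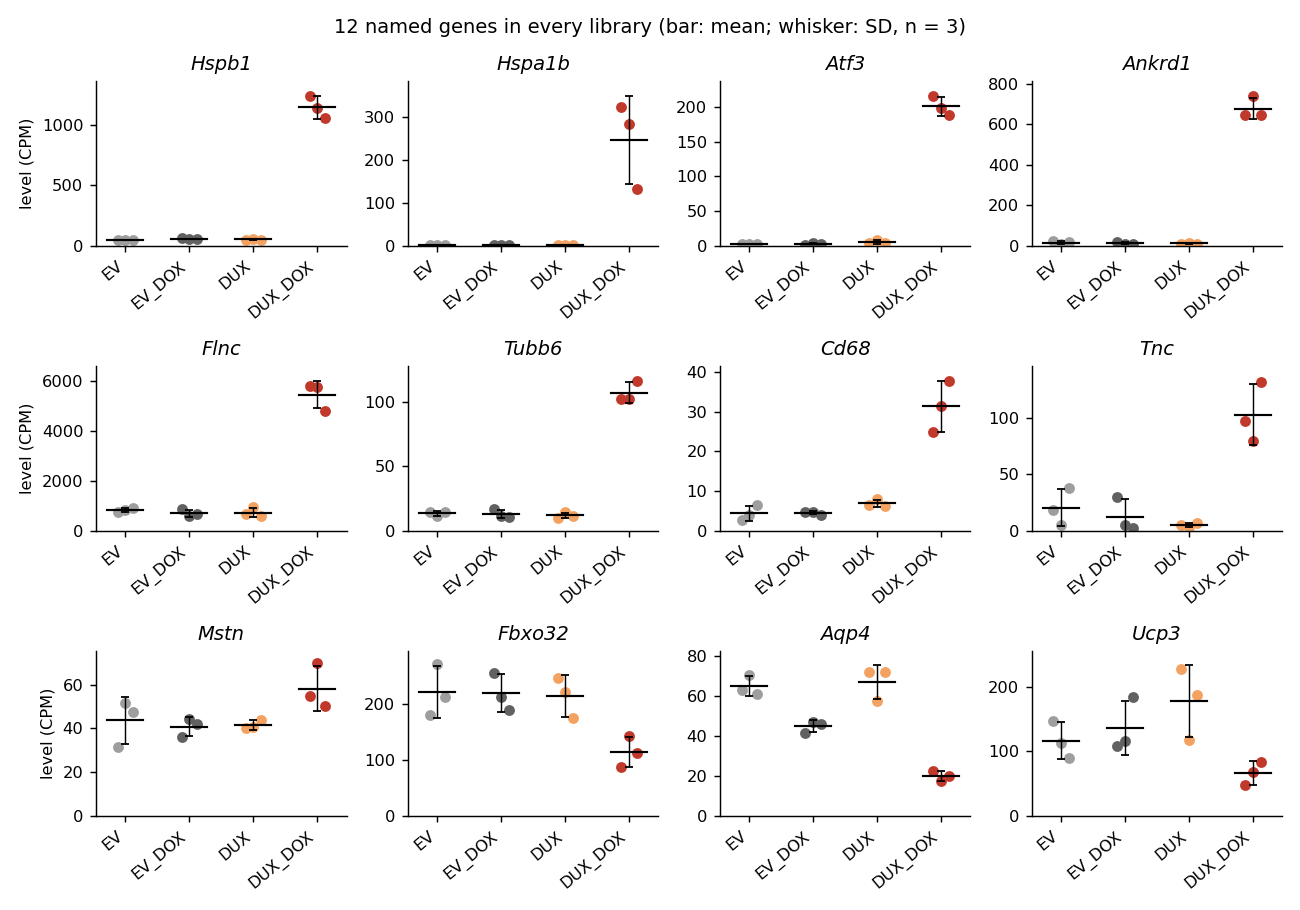
The level (CPM) of 12 named genes is plotted for every library of the 4 groups, with the mean and SD of each group (n = 3). Hspb1, Hspa1b, Atf3, Ankrd1, Flnc, Tubb6, Cd68 and Tnc in DUX_DOX lie above every other library, Fbxo32, Aqp4 and Ucp3 lie below, and Mstn in DUX_DOX lies above its DUX libraries but overlaps the empty-vector range.

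Chaperones of the endoplasmic reticulum, where secreted and membrane proteins fold, also rose. Of 23 genes in this group 19 rose and 1 fell, with a median of 0.63. Hspa5 (BiP), the main sensor-binding chaperone, rose by 1.00, Manf by 1.36, the disulfide isomerase Pdia6 by 0.93 and Sdf2l1 by 2.66. The gene that fell was Herpud1 (-0.39), which serves the degradation of misfolded proteins at that membrane. The integrated stress response joins several kinases that slow translation by phosphorylating eIF2α and raise Atf4. Here 13 of 27 genes rose and 1 fell (Vldlr, -0.62), with a median of 0.51. Atf3, a stress transcription factor, was at 3.08, 8.23 and 3.36 CPM in DUX and 215, 198 and 189 CPM in DUX_DOX (log2 fold change 5.35, SE 0.27, adjusted p = 7.37e-09). Ppp1r15a, the phosphatase subunit that ends the response and whose promoter is printed above, was at 24.0, 22.5 and 19.1 CPM and 144, 170.5 and 134 CPM (log2 fold change 2.78, SE 0.12, adjusted p = 2.66e-09). Both genes were far above their DUX range in every DUX_DOX library. Atf4 rose by 0.73, the mitochondrial folate enzyme Mthfd2 by 2.57 and the serine synthesis enzyme Psat1 by 1.90. Other textbook members were not called, among them Ddit3 (CHOP, -0.17), Chac1 (-1.29) and Asns (0.57). Of 20 cytosolic aminoacyl-tRNA synthetases, many of which Atf4 can drive, Hars (0.37; the call was lost with 1 library left out, at an adjusted p of 0.053 to 0.0682 in 3 of 6 runs) and Vars (0.39) rose and the median was -0.01, or 0.17 when scaled to library totals.

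Immediate early genes, the transcription factors that respond first to a stimulus, rose as a group: 21 of 26 rose and 1 fell (Klf10, -0.89), with a median of 1.07. Fosl1 had 2 counts over the DUX libraries and 202 over DUX_DOX, a ratio of 98.4 (counting interval 26.9 to 818). Fos rose by 3.25 and Ier5 by 2.16, while Nr4a1 (0.08) and Nr4a2 (-0.18) were not called. On a p53 target list 11 of 30 genes rose and 3 fell, with a median of 0.36. Btg2, which slows the cell cycle, rose by 2.23 and Pmaip1 (Noxa), which neutralises survival proteins of the Bcl2 family, by 3.00, while Cdkn1a (p21) rose by 0.83. Tigar (-0.54), Rrm2b (-0.51) and Trp53inp1 (-0.37) fell. Within the Bcl2 family the pore-forming Bax and Bak1 rose by 0.76 and 0.56, Bcl2 itself fell by 0.86, and 9 of 16 members were not called. Among oxidative stress genes 13 of 29 rose and 3 fell: Mt2, a metal-binding metallothionein, rose by 3.43, Mt1 by 1.44 and sulfiredoxin (Srxn1) by 2.15, while Sod2 (-0.69), Gsta4 (-0.56) and Cat (-0.35) fell and Nqo1 (-0.09) was not called. Of the smaller changes, those lost with 1 library left out were of Bcl2 at an adjusted p of 0.0849 to 0.0953 without DUX 1 or DUX_DOX 2, Cdkn1a at 0.0627 to 0.0693 in 3 of 6 runs, Trp53inp1 at 0.0667 to 0.092 in 4 of 6 runs and Cat at 0.0615 without DUX 3.

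Outside these lists, the largest rises by fold from a measurable level were spread over many functions. Otud1, a deubiquitinase, was at 11.0, 12.9 and 12.6 CPM and 315, 335 and 260.3 CPM (log2 fold change 4.64, SE 0.23, adjusted p = 6.38e-09). Its DUX libraries were nearly equal, and groups that do not overlap were a condition for naming it. Further rises were those of Rrad, a Ras-like GTPase (4.87), Peg10, an imprinted retrotransposon-derived gene (4.80), Rnd1, a small GTPase (4.56), and F2rl1, a protease-activated receptor (4.24). Gm26917, a long non-coding RNA gene outside the naming rule and picked after its values were seen, was at 1.66, 3.15 and 2.47 CPM and 34.1, 61.7 and 36.4 CPM (log2 fold change 4.18, SE 0.25, adjusted p = 5.17e-08). Of 158 annotated lincRNA genes 33 fell (20.9%) and 9 rose, and of 131 antisense genes 26 fell (19.8%) and 7 rose. Whether the counting used strand is not given in the sources used here, so antisense genes cannot be told apart from their partners.

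Genes of sarcomere repair and stretch sensing took a larger share of the reads. Of 20, 10 rose and 3 fell, and their summed level went from between 13977 and 16905 CPM to between 31550.3 and 34719 CPM. Flnc, the filamin that cross-links actin at the Z-disc and gathers at sarcomere lesions, was at 665, 943 and 577 CPM in DUX and 5792, 5733 and 4809 CPM in DUX_DOX (log2 fold change 2.90, SE 0.19, adjusted p = 1.14e-07). Xirp1 and Xirp2, Xin proteins that bind actin and filamin at the same lesions, rose by 4.04 and 1.41. Ankrd1, a titin-binding ankyrin protein induced by stretch, was at 9.96, 13.2 and 8.67 CPM and 646, 737 and 646 CPM (log2 fold change 5.99, SE 0.36, adjusted p = 5.17e-08). Its DUX_DOX libraries were close to each other and well clear of DUX. Csrp3, the muscle LIM protein, rose by 4.43, Mustn1 by 3.49, Ankrd2 by 2.38 and Nrap by 1.16. The 3 that fell were Ankrd23 (-0.41), Myoz1 (-0.36) and Ldb3 (-0.33), the last 2 with calls that single libraries ended (Myoz1 at an adjusted p of 0.0769 to 0.159 in 5 of 6 runs and Ldb3 at 0.0788 to 0.105 in 4 of 6 runs). Of 12 tubulin genes 8 rose and 0 fell. Tubb6, a beta-tubulin that is low in mature fibres, was at 10.3, 14.5 and 11.1 CPM and 102, 103 and 116 CPM (log2 fold change 3.16, SE 0.17, adjusted p = 1.11e-08), and Tuba1c rose by 3.01.

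Fast-twitch contractile genes changed little by fold, with a median of -0.24. Of 15 measured 0 rose and 2 fell, Myh1 (log2 fold change -0.77, SE 0.22, adjusted p = 0.0159) and the calcium pump Atp2a1 (log2 fold change -0.32, SE 0.11, adjusted p = 0.0466). Myh4, the main fast myosin of this muscle, was at 42419, 40472 and 36439 CPM in DUX and 34225, 35693 and 25844 CPM in DUX_DOX and was not called (log2 fold change -0.32, SE 0.15, adjusted p = 0.129). The DUX_DOX libraries all lay below DUX for Myh4, and DESeq2's Wald test called it. Skeletal actin, Acta1, was not called (-0.14, or 0.04 when scaled to library totals). Of 12 slow-twitch genes Atp2a2 rose (0.90) and Myl3 fell (-0.49), but these calls, like those of Myh1 and Atp2a1, were lost when single libraries were left out. Slow myosin Myh7 was not called despite a fitted value of 3.19. It was at 3.72, 1.85 and 2.91 CPM in DUX and 3.50, 69.3 and 4.02 CPM in DUX_DOX, with DUX_DOX 2 far above the other 2, and EV_DOX 2 stood at 116 CPM. Of 7 genes on the embryonic and perinatal list 2 rose, the perinatal myosin Myh8 by 1.77 and the light chain Myl12a by 1.52. Myl12a is also a gene of non-muscle cells and does not mark developing fibres. Embryonic Myh3 (0.67) was not called. The medians were 0.79 for the slow-twitch and 0.67 for the embryonic and perinatal list. Medians per library were taken of the log2 ratio to the DUX mean, with 0.5 CPM added to both. For the slow-twitch list they were 0.14, 1.13 and 0.13 in DUX_DOX 1 to 3, so its rise rests on DUX_DOX 2. With the empty vector they were -0.39 to 1.29, highest in EV_DOX 2. For the embryonic and perinatal list they were 0.44 to 0.72 in DUX_DOX, which overlapped the -0.10 to 0.72 of the empty vector.

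Genes of excitation-contraction coupling, which turn the nerve signal into calcium release, fell in 11 of 25 cases and rose in 0, with a median of -0.31. Examples were the chloride channel Clcn1 (-0.73), the potassium channel Kcnj2 (-0.76), the calsequestrin Casq2 (-0.84) and the calcium-binding Hrc (-0.62). The median was -0.13 when scaled to library totals, where 6 fell and 3 rose. In the dystrophin complex 7 of 20 fell and 3 rose, with a median of -0.16, or 0.02 when scaled to library totals. Dmd fell by 0.36, Nos1 by 0.74 and Dtna by 0.47, while the membrane repair protein Dysf rose by 0.53, Sntb1 by 0.88 and Sntb2 by 0.82. Of 23 genes on a list of myogenic regulators 4 rose: Myod1 (1.04), Myog (1.36), Myf6 (0.52) and Des (0.48), a filament protein gene rather than a regulator. Eya1 (-0.38) and Eya4 (-0.46) fell, and Pax7 of the satellite cell was not called at -0.11. Over all genes tested 16.5% rose and 13.1% fell, so rises on the myogenic list were near that background and falls below it. Of the 19 genes that mark denervation and the neuromuscular junction, Runx1 (2.37), Musk (1.75) and Ncam1 (0.52) rose, Chrne (-0.97), Lrp4 (-0.64) and Ache (-0.37) fell, and the acetylcholine receptor subunit Chrna1 was not called at 0.06. These 6 calls among 19 genes were a share near the 29.6% of all genes tested. Single libraries ended the calls of Dmd at an adjusted p of 0.0673 to 0.0704 without DUX 1 or DUX_DOX 3, Sntb2 at 0.0846 to 0.118 in 4 of 6 runs, Eya1 at 0.0534 to 0.0843 in 3 of 6 runs, Eya4 at 0.064 to 0.0701 without DUX 1 or DUX_DOX 3, Ncam1 at 0.0596 to 0.0849 in 4 of 6 runs, Chrne at 0.0504 to 0.137 in 5 of 6 runs and Ache at 0.0712 to 0.0729 without DUX 1 or DUX_DOX 3.

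For the myostatin question of the series, the ligand, its inhibitors, receptors and Smads were read in turn. Of 34 genes of this pathway 10 rose and 2 fell, with a median of 0.24. Their summed level was 1014 to 1061 CPM in DUX and 1126 to 1193 CPM in DUX_DOX. The DUX_DOX values lay within the 1013 to 1303 CPM of the empty-vector libraries. Mstn, myostatin itself, was at 40.3, 40.5 and 44.0 CPM in DUX and 54.8, 69.8 and 50.1 CPM in DUX_DOX (log2 fold change 0.49, SE 0.16, adjusted p = 0.0339). All DUX_DOX libraries lay above all DUX libraries, but the call was lost when any 1 of the DUX libraries or DUX_DOX 2 was left out, with log2 fold changes of 0.32 to 0.53 and adjusted p of 0.0589 to 0.176 in those runs. With DUX 1 and DUX 2 both left out it was 0.39 (adjusted p = 0.371). Among secreted partners Fstl3, a follistatin-like inhibitor, rose by 1.5, Fstl1 by 1.11 and Tgfb1 by 0.66, the myostatin-binding Wfikkn2 fell by 0.57, and Fst (0.23) was not called. The receptors Acvr2b (-0.73, adjusted p = 0.181) and Acvr2a (-0.03) were not called, and Acvr1 rose by 0.45. Smad2 was at 10.7, 9.46 and 8.97 CPM and 16.30, 19.02 and 16.77 CPM (log2 fold change 0.84, SE 0.11, adjusted p = 6.28e-05). Smad3, its partner, moved the opposite way, from 133, 123 and 116 CPM to 96.8, 80.5 and 72.7 CPM (log2 fold change -0.57, SE 0.11, adjusted p = 0.00152). Neither gene had overlapping groups. Smad1 rose by 1.04, Smad5 by 0.46 and the inhibitory Smad7 by 0.62, and Smad4 was not called (-0.04). Calls lost with 1 library left out were also those of Acvr1 at an adjusted p of 0.0508 to 0.0512 without DUX 1 or DUX_DOX 2 and Smad5 at 0.0531 without DUX_DOX 2.

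Of the ubiquitin ligases used as markers of atrophy, Fbxo32 fell and Trim63 was not called. Fbxo32 (atrogin-1) was at 246, 219.8 and 174 CPM in DUX and 87.2, 142 and 112 CPM in DUX_DOX (log2 fold change -0.91, SE 0.19, adjusted p = 0.00253), with no overlap. Trim63 (MuRF1) was at 171, 191 and 143 CPM and 166, 174 and 176 CPM and was not called (log2 fold change 0.03, SE 0.14, adjusted p = 0.882). Of 21 genes of this group 4 rose and 7 fell, with a median of -0.11, or 0.07 with 6 rises and 2 falls when scaled to library totals. The ubiquitin gene Ubb (0.58), Trim32 (0.72) and Fbxo40 (0.41) rose. Of 31 autophagy and lysosome genes 5 rose and 1 fell, led by Gabarapl1 (0.54) and Sqstm1 (0.41). Over all genes tested 16.5% rose and 13.1% fell, so the rises were near that background and the falls below it. Of 20 genes of the insulin-like growth factor system Igfbp7 (0.40) rose and Igfbp5 (-0.83) and Irs1 (-0.46) fell, while Igf1 (0.02) was not called. Of 43 proteasome genes 7 rose, about the share of all genes tested (16.5%), and 1 fell (Psmb9, -0.90). Of these calls, 2 of 6 for autophagy, 1 of 3 for growth factors and 2 of 8 for the proteasome held in every run with 1 library left out, and those lost included Igfbp7 at an adjusted p of 0.0572 to 0.148 in 5 of 6 runs, Irs1 at 0.0524 to 0.0549 without DUX 1 or DUX_DOX 3 and Psmb9 at 0.126 to 0.169 in 4 of 6 runs. Psmd11, a lid subunit needed to assemble the full proteasome, was at 96.7, 102 and 88.1 CPM against 187, 200.4 and 188 CPM (log2 fold change 1.00, SE 0.08, adjusted p = 8.18e-07).

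**Figure D3:**
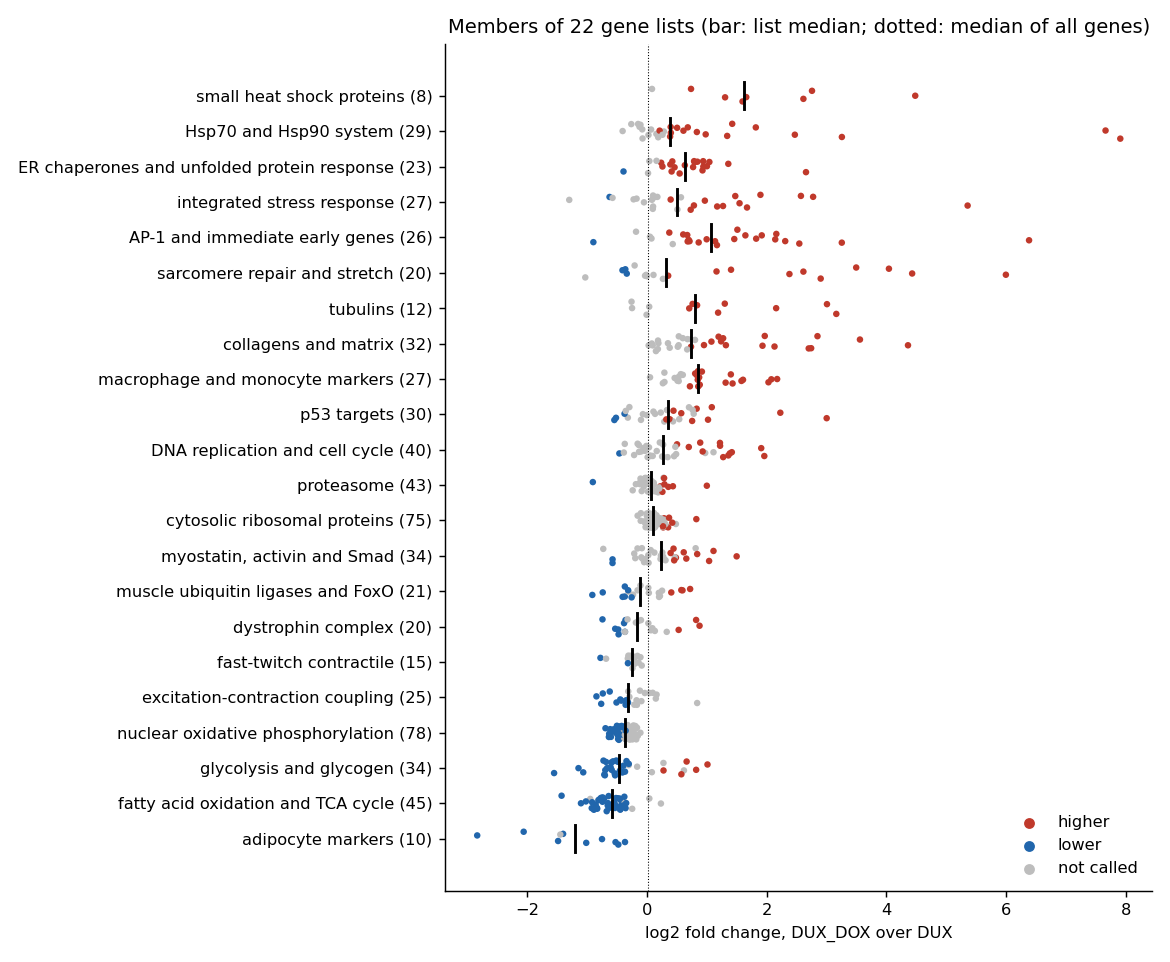
Each point is the log2 fold change (DUX_DOX over DUX) of 1 member of 22 gene lists, with the number measured in brackets, the list median as a bar and the median of all genes as a dotted line. Small heat shock proteins, immediate early genes and endoplasmic reticulum chaperones lie mostly right of 0, and fatty acid oxidation, glycolysis and adipocyte genes lie mostly left of it.

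Genes of fuel use fell together. Of 45 genes of fatty acid oxidation and the tricarboxylic acid cycle 40 fell and 0 rose, with a median of -0.58, and 33 fell and 0 rose when scaled to library totals. Lpl, the lipase that releases fatty acids from blood lipid, was at 437, 379.6 and 505 CPM in DUX and 249, 182 and 186 CPM in DUX_DOX (log2 fold change -1.10, SE 0.15, adjusted p = 0.000139). Ucp3, an uncoupling protein of muscle mitochondria, was at 228, 118 and 188 CPM and 47.9, 67.4 and 84.2 CPM (log2 fold change -1.42, SE 0.27, adjusted p = 0.0014). The groups did not overlap for either gene, though DUX 2 was well below the other DUX libraries for Ucp3. Regulators fell with the enzymes: Ppargc1a, the coactivator of mitochondrial growth, by 0.81, Ppara by 1.02 and Esrrg by 0.83. The summed level of this list was 15514 to 16881 CPM in DUX and 10238 to 11783 CPM in DUX_DOX. Of 78 nuclear genes of oxidative phosphorylation 38 fell and 0 rose, with a median of -0.36 (17 fell and 0 rose when scaled to library totals). Of the 40 falls in fatty acid oxidation 31, and of the 38 in oxidative phosphorylation 13, held in every run with 1 library left out. The latter falls were modest, such as Uqcrc2 (-0.63), Ndufs1 (-0.61) and Sdha (-0.56). The summed level of that list was 27071 to 27608 CPM in DUX, 21056 to 25760 CPM in EV and 17939 to 22385 CPM in DUX_DOX, which overlapped EV. Of 9 transcripts of the mitochondrial genome 5 fell, among them mt-Nd1 (log2 fold change -0.56, SE 0.16, adjusted p = 0.0151) and mt-Co1 (log2 fold change -0.45, SE 0.12, adjusted p = 0.0145), and both calls were lost without DUX 1 or without DUX_DOX 2. Summed over the 9, the level was 188294 to 231729 CPM in DUX and 138066 to 166543 CPM in DUX_DOX. The DUX_DOX sums lay below EV (171150 to 193105 CPM) but overlapped EV_DOX (153648 to 196873 CPM). Of 16 mitochondrial chaperones and proteases 6 fell and 0 rose, such as Hspa9 (-0.51) and Oma1 (-0.62). Their sum was 1754 to 1848 CPM in DUX and 1309 to 1545 CPM in DUX_DOX. The latter overlapped the 1340 to 1750 CPM of the empty-vector libraries. The test of whether the chow difference differed between vectors, described below, called 0 of the 16.

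Glycolysis and glycogen genes fell in 23 of 34 cases and rose in 5, with a median of -0.47. Pfkfb3, which makes the activator of phosphofructokinase, was at 416, 391 and 297 CPM and 97.6, 157 and 123 CPM (log2 fold change -1.55, SE 0.29, adjusted p = 0.0013). Its relative Pfkfb1 fell by 1.14 and the insulin-responsive glucose carrier Slc2a4 by 0.72. The 5 that rose were Slc2a1, the ubiquitous glucose carrier (1.01), Pfkl (0.82), Pgm1 (0.66), Ppp1r3c (0.58) and Gyg (0.28), of which single libraries ended 3 calls (Pgm1 at an adjusted p of 0.0588 to 0.156 in 5 of 6 runs, Ppp1r3c at 0.0673 to 0.117 in 5 of 6 runs and Gyg at 0.0735 to 0.138 in 4 of 6 runs). Of 10 genes that mark fat cells 9 fell and 0 rose, with a median of -1.20, and their summed level was 636 to 705 CPM in DUX and 373 to 459.5 CPM in DUX_DOX. These genes include lipid handlers of muscle such as Pnpla2 (-0.75) and Lipe (-0.48) as well as Adipoq, the fat cell hormone (-1.40). With 1 library left out in turn, 4 of the 9 falls held in every run, and Adipoq was lost at an adjusted p of 0.0501 to 0.134 in 5 of 6 runs. In EV_DOX against EV the median of the fat cell list was -0.48, with 0 genes called. The test of whether the chow difference differed between vectors, described below, called 4 of the 10 as lower. Plin5, which coats lipid droplets of muscle, was at 20.5, 20.4 and 30.2 CPM and 8.61, 7.37 and 8.04 CPM (log2 fold change -1.57, SE 0.21, adjusted p = 8.58e-05).

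Single genes with the largest falls by fold included those of membrane channels and carriers. Aqp4, the water channel of fast fibres, was at 72.3, 57.5 and 71.9 CPM in DUX and 22.7, 17.7 and 19.8 CPM in DUX_DOX (log2 fold change -1.75, SE 0.12, adjusted p = 1.17e-07). Slc25a34, a mitochondrial carrier, was at 24.6, 11.8 and 22.3 CPM and 4.34, 2.29 and 4.64 CPM (log2 fold change -2.39, SE 0.38, adjusted p = 0.000366). Groups that do not overlap were a condition for naming both genes. DUX 2 was again the lowest DUX library for Slc25a34. The peptide transporter-like Slc15a5 fell by 1.77, Txnip, which blocks glucose uptake, by 1.52, the myokine Il15 by 1.66 (a call lost in 1 run, at an adjusted p of 0.0508 without DUX_DOX 2), the lysine methyltransferase Mettl21e by 1.67, the Wnt antagonist Frzb by 1.47 and Klhl38 by 1.46.

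Macrophage markers rose with the matrix. Of 27 markers of macrophages and monocytes 17 rose and 0 fell (9 in every run with 1 library left out), with a median of 0.85, and their summed level was 244 to 274 CPM in DUX and 402 to 579 CPM in DUX_DOX. Cd68, a lysosomal protein of macrophages, was at 6.48, 8.00 and 6.28 CPM and 24.8, 31.4 and 37.6 CPM (log2 fold change 2.18, SE 0.22, adjusted p = 9.29e-06). Itgam rose by 2.03 and Ccr2, the receptor of infiltrating monocytes, by 1.58, while Cd163 of resident macrophages (0.29) and the leukocyte marker Ptprc (0.27) were not called. The Ccr2 ligands Ccl2 (1.27, 1.31 and 0.448 CPM against 19.7, 13.5 and 23.7 CPM; log2 fold change 4.23, SE 0.44, adjusted p = 9.39e-06) and Ccl7 (3.23) rose, as did Tnfrsf12a, the receptor of the cytokine TWEAK (3.67). DUX_DOX 3 held the highest level of the marker sum, Cd68 and Ccl2. Of 18 complement genes 4 rose, the receptors C5ar1 (1.95) and C3ar1 (1.37), Cfp (0.87) and Clu (0.37), while C3 (-0.52) and Cfd (-1.48) fell. These 6 complement calls were a share near the 29.6% of all genes tested. Of 19 antigen presentation genes Ctss (0.72) rose and H2-T23 (-0.63) fell. Of these 8 genes, only C5ar1, C3ar1 and Cfp kept their call in every run with 1 library left out, and the calls lost were those of Clu at an adjusted p of 0.0717 to 0.083 in 4 of 6 runs, C3 at 0.121 to 0.161 in 4 of 6 runs, Cfd at 0.0596 to 0.171 in all 6 runs, Ctss at 0.0935 to 0.175 in 3 of 6 runs and H2-T23 at 0.0569 to 0.0913 in 4 of 6 runs. The Cfd call was also lost with DESeq2 and voom. The summed antigen presentation level was 775 and 683 CPM in DUX 1 and DUX 2, 521 CPM in DUX 3 and 609.5 to 874 CPM in DUX_DOX.

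Of 32 collagens and matrix genes 15 rose and 0 fell (11 in every run with 1 library left out), with a median of 0.74. Their summed level was 3506 to 4749 CPM in DUX and 5363 to 6827 CPM in DUX_DOX, within the 2602 to 8633 CPM of the empty-vector libraries. Tnc, the tenascin of injured tissue, was at 4.66, 3.54 and 6.72 CPM in DUX and 96.8, 79.2 and 132 CPM in DUX_DOX (log2 fold change 4.36, SE 0.76, adjusted p = 0.000761). Postn rose by 2.85, Thbs1 by 3.56, Ctgf by 2.74 and Lox, which cross-links collagen, by 2.13 (a call lost in 1 run, at an adjusted p of 0.0528 without DUX 1). The main fibrillar collagens Col1a1 (0.68), Col1a2 (0.52) and Col3a1 (0.74) were not called. Timp1, an inhibitor of matrix proteases, rose by 4.53 and Adam12 by 3.04. Of 11 tenocyte markers 0 were called, though their summed level was 398 to 651 CPM in DUX and 780 to 929 CPM in DUX_DOX, and 352 to 2705 CPM in the empty-vector libraries. Tnmd and Scx, which define tendon, had log2 fold changes of 0.64 and 0.61. The part of tendon in the matrix result was not tested. Markers of other cells gave fewer calls. The calls that held in every run with 1 library left out were as follows. Kdr (-0.74) fell among 16 endothelial markers, and Mfap5 (1.83) rose among 13 of fibro-adipogenic progenitors. Sdc4 (1.11) rose among 11 of satellite cells, Des (0.48) among 11 of smooth muscle and pericytes and Egr2 (1.83) among 11 of Schwann cells. Des is also a filament gene of the muscle fibres themselves, and Egr2 is also an immediate early gene. Calls that single libraries ended were those of endothelial Flt1 (-0.32), Eng (0.21) and Sox17 (0.39), of Hsd11b1 (-0.88), whose groups overlapped, of Vcam1 (0.48) and of the red blood cell gene Alas2 (-1.02). In those runs they stood as follows: Flt1 at an adjusted p of 0.0515 to 0.0896 in 3 of 6 runs, Eng at 0.0561 to 0.152 in all 6 runs, Sox17 at 0.0607 to 0.151 in 5 of 6 runs, Hsd11b1 at 0.0535 to 0.158 in 5 of 6 runs, Vcam1 at 0.0508 to 0.154 in all 6 runs and Alas2 at 0.0648 to 0.306 in 4 of 6 runs. DESeq2's Wald test did not call Eng, Sox17 or Vcam1. Flt1 had a like value with the empty vector (-0.31, not called). The summed red blood cell level was 537 CPM in DUX 3, 224 and 265 CPM in the other DUX libraries and 169 to 255 CPM in DUX_DOX. Of T and NK cell markers none was in the table, and neutrophil and B cell lists had 1 measured gene each, which was not called.

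**Figure D4:**
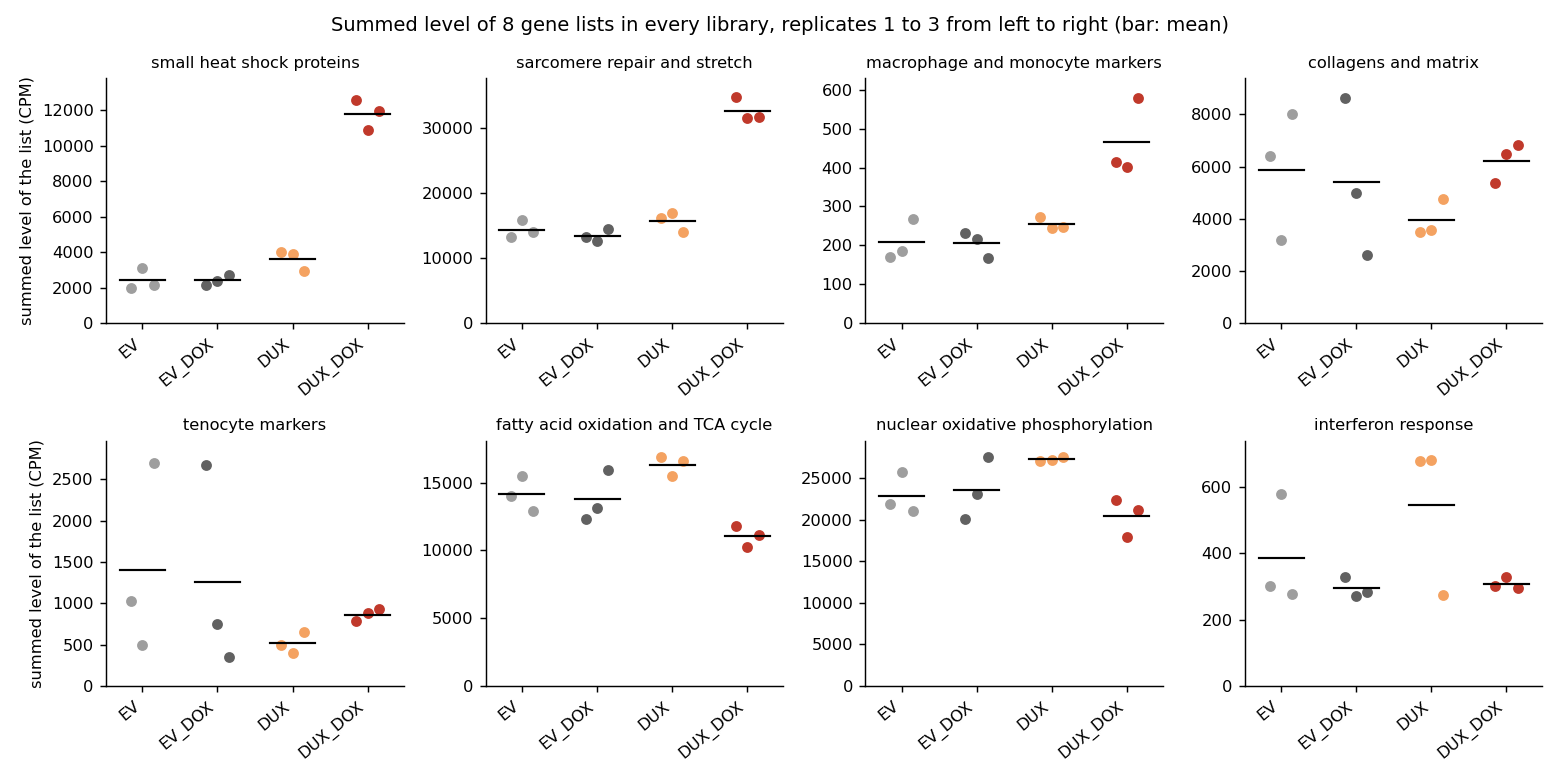
The summed level (CPM) of 8 gene lists is plotted for every library, replicates 1 to 3 from left to right in each group, with the group mean as a bar. Small heat shock and sarcomere repair genes are highest in the 3 DUX_DOX libraries, tenocyte markers reach 2705 CPM in EV 3, and interferon genes are high in EV 2, DUX 1 and DUX 2.

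Interferon-induced genes were lower in DUX_DOX, with 8 of 36 falling and 1 rising (Oas1a, 1.32; call lost at an adjusted p of 0.055 to 0.0782 in 4 of 6 runs) and a median of -0.37, but the result rests on DUX 1 and DUX 2. Iigp1, an interferon-inducible GTPase, was at 102, 106 and 14.9 CPM in DUX 1 to 3 and 23.2, 16.3 and 10.7 CPM in DUX_DOX (log2 fold change -2.15, SE 0.69, adjusted p = 0.0304). DUX 1 and DUX 2 were high, and DUX 3 lay within the DUX_DOX range. The summed level of the list was 679 and 683 CPM in DUX 1 and DUX 2, 274 CPM in DUX 3, 579 CPM in EV 2 and 271 to 329 CPM in the 8 others, DUX_DOX included. With DUX 1 and DUX 2 left out, an alternative chosen after seeing the data, the median was 0.24 and 0 genes were called. DUX 1 and DUX 2 were also the high libraries for Gbp10 (8.78, 11.3 and 2.32 CPM in DUX 1 to 3) and Gbp6 (6.96, 9.54 and 2.02 CPM), which fell by 2.85 and 2.41 on the log2 scale. Of the 9 calls, 2 held in every run with 1 library left out, and that of Iigp1 was lost at an adjusted p of 0.0882 to 0.114 in 4 of 6 runs.

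Genes of RNA and protein synthesis and of the cell cycle changed by smaller amounts. Of 75 cytosolic ribosomal proteins 7 rose and 0 fell, led by Rpl3 (0.83), and scaling to library totals gave 35 rises. Of 29 ribosome biogenesis genes 13 rose and 1 fell (Polr1a, -0.30), led by the helicase Ddx21 (0.54) and Nop2 (0.53). Of 40 DNA replication and cell cycle genes 12 rose and 1 fell (Rrm1, -0.46), with Cdt1, which licenses replication origins, at 1.91, Mcm6 at 1.27 and the clamp Pcna at 0.89. Of 19 SR splicing factors and their kinases 4 rose, Srpk2 (0.72), Clk2 (0.59), Tra2b (0.33) and Srsf4 (0.25), and Clk4 (-0.23) fell. These 5 splicing calls were a share near the 29.6% of all genes tested. Of 16 nonsense-mediated decay factors Smg9 (0.38) and Rbm8a (0.31) rose and Upf1 was not called (-0.05). Of 20 clock genes 2 rose and 4 fell, a share of calls near the 29.6% of all genes tested. The rises were those of Per1 (0.85) and Nfil3 (0.84), and the falls included Nr1d2 (-0.53), Per3 (-0.49) and Tef (-0.36). Many of these small changes were lost in some run with 1 library left out: 1 of 7 calls held for ribosomal proteins, 8 of 14 for ribosome biogenesis, 6 of 13 for the cell cycle, 2 of 5 for splicing factors and 0 of 2 for decay. Among named genes the lost calls were Polr1a at an adjusted p of 0.074 to 0.0819 without DUX 1 or DUX_DOX 3, Rrm1 at 0.051 to 0.064 in 3 of 6 runs, Tra2b at 0.0539 to 0.0683 in 3 of 6 runs, Srsf4 at 0.0799 to 0.167 in 5 of 6 runs, Clk4 at 0.054 to 0.118 in 4 of 6 runs, Smg9 at 0.102 to 0.104 without DUX 3 or DUX_DOX 3, Rbm8a at 0.0826 to 0.134 in 5 of 6 runs and Per3 at 0.0799 to 0.117 in 4 of 6 runs.

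The chow itself was read in muscle with the empty vector, whose libraries enter the Dux contrast only through the shared spread and scaling. EV_DOX against EV gave 5 genes at an adjusted p under 0.05 (0.0392% of those tested, edgeR), all higher: Scand1, Mafa, Bmyc, Phospho1 and Ccdc85b. At an unadjusted p under 0.05 there were 999, against 5296 in the Dux vector muscle. Whether the chow difference itself differed between vectors was tested by the interaction term, which called 1326 genes (10.4%), 889 (6.97%) with a higher log2 change in Dux muscle and 437 (3.43%) with a lower one. Hspb1 differed by 4.22 (SE 0.15, adjusted p = 1.24e-09), Flnc by 3.16 (adjusted p = 3.73e-06) and Ankrd1 by 6.27 (adjusted p = 2.2e-06). Aqp4 was not called with the empty vector (63.3, 70.8 and 61.2 CPM in EV and 41.5, 47.0 and 46.2 CPM in EV_DOX), and its fall differed between vectors by -1.21 (adjusted p = 0.000278). Fbxo32 (-0.89, adjusted p = 0.0446), Lpl (-0.91, adjusted p = 0.0162) and Smad2 (0.88, adjusted p = 0.00256) passed the interaction test. Mstn (0.58, adjusted p = 0.112), Smad3 (-0.33, adjusted p = 0.179), Pfkfb3 (-1.12, adjusted p = 0.0888), mt-Co1 (-0.36, adjusted p = 0.204) and 7 of the 14 largest falls (Gbp10, Gbp6, Slc15a5, Il15, Pfkfb3, Cfd and Frzb) did not, which does not show that both vectors responded alike. For genes at 0 counts in a whole group, such as Zscan4c, the interaction could not be read.

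**Figure D5:**
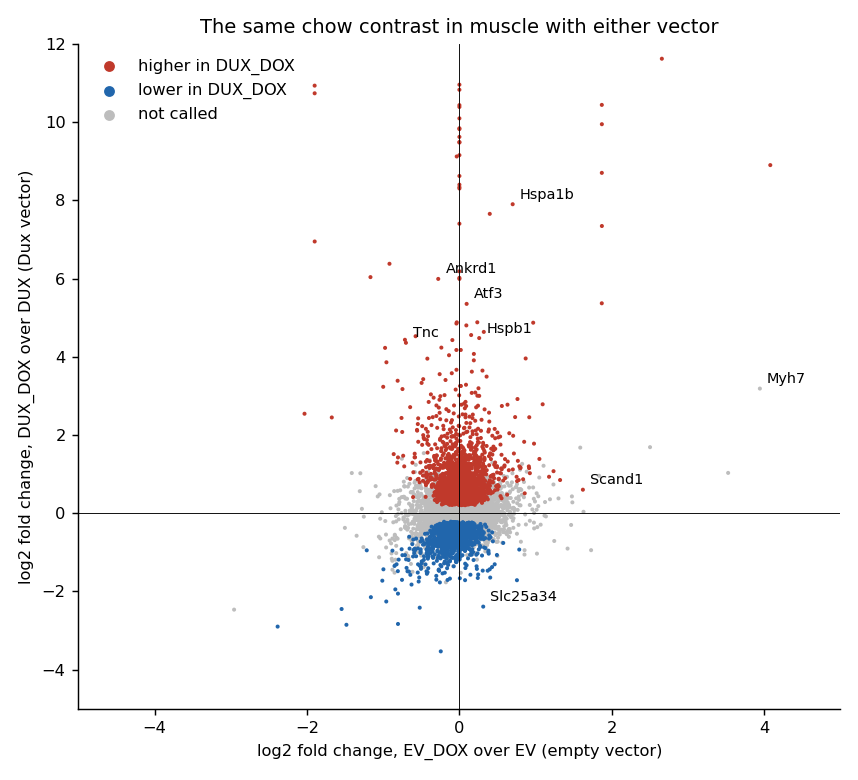
Each point is 1 of 12751 genes, with the log2 fold change of EV_DOX over EV on the horizontal axis and of DUX_DOX over DUX on the vertical axis, coloured by the call in Dux muscle. The cloud is taller than wide: 3772 genes were called on the vertical axis and 5 on the horizontal one, and columns of points at fixed horizontal values are genes with few or no counts in the empty-vector libraries.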

How the data were processed

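Poly-A RNA of whole muscle (200 ng of total RNA per library) was sequenced, and the deposited values are raw counts of reads per gene; the authors made them with STAR and featureCounts after bcl2fastq 2.17.1.14, on the GRCm38 build (submitters' processing notes). No source used here gives the other versions or the annotation counted. The table holds 12752 genes, and none has a mean count under 10.0.

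Counts of all 12 libraries were fitted with edgeR 4.0.16 in R 4.3.3 (TMM factors, default filter on low counts, 1 mean per group, quasi-likelihood F test, two-sided, 8 residual degrees of freedom). P-values were adjusted by Benjamini-Hochberg over 12751 genes with a threshold of 0.05. The interaction term was the chow contrast in Dux muscle minus that in empty-vector muscle. The median biological coefficient of variation was 10.6%. Fold changes carry a prior count of 0.125, and ratios and bounds for genes with 0 to 3 counts in a group cover counting error only. Steps were tested on simulated data. Pairs of libraries of a group differed by more than counting noise (chi-square per degree of freedom 4.89 to 25.9). Coordinates are from GENCODE M21, which held 12722 of the genes.

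The comparison, the 54 gene lists and the naming rule were chosen with earlier results of these data known. The rule named AW822073; among genes with at least 5 CPM and groups that do not overlap, the 8 largest rises from under 0.5 CPM and the 14 largest other rises and falls; the 6 largest gains and losses in CPM; the 3 members of each list with the smallest p; and Mstn, Acvr2b, Fst, Smad2, Smad3, Smad7, Tgfb1, Fbxo32, Trim63, Ckm, Acta1 and Myh4. Some of these are left out for length or are not reported here, and other list members were named after their values were seen. Alternatives were DESeq2 1.42.0, limma 3.58.1 (voom), other scalings, no filter, the 6 libraries alone, a replicate block and leaving out libraries.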

Additional observations from a re-analysis of the deposited data

Results flagged for a closer look

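By the interaction test (edgeR's quasi-likelihood test, Benjamini-Hochberg), the chow difference differed between Dux and empty-vector muscle for 1326 genes. Among the genes with the largest rises, the log2 chow change in Dux muscle exceeded that in empty-vector muscle by 7.20 for Hspa1b and 7.26 for Hspa1a, the inducible Hsp70 pair. The excess was 6.27 for Ankrd1, 5.26 for Atf3, 5.20 for Ccl2, 5.10 for Timp1, 5.06 for Tnc, 4.71 for Peg10, 4.52 for Csrp3, 4.47 for F2rl1, 4.40 for Rnd1, 4.32 for Otud1, 4.22 for Hspb1 and 3.90 for Rrad. For the most abundant risers it was 4.18 for Xirp1, 3.16 for Flnc, 2.83 for Cryab, 2.75 for Hspb7, 1.57 for Xirp2 and 1.39 for Nrap. Among the genes with the largest falls the difference was -2.70 for Slc25a34, -1.81 for Plin5, -1.55 for Mettl21e, -1.33 for Plet1os, an antisense gene, -1.21 for Aqp4, -1.18 for Klhl38 and -0.97 for Txnip. The other 7 of the 14 largest falls (Gbp10, Gbp6, Slc15a5, Il15, Pfkfb3, Cfd and Frzb) did not pass, with differences of -1.89 to -0.67 and adjusted p of 0.0888 to 0.517. Smad2 differed by 0.88 and Fbxo32 by -0.89. No sample was tested as an outlier within its group, since groups hold 3 libraries.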

How the results depend on the processing

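The count of 3772 genes stayed within 1.5 times under DESeq2, voom, other scalings, no filter, the 6 libraries alone, and single libraries left out (2713 to 3515). It was 1188 with DUX 1 and DUX 2 both left out, an alternative chosen after seeing the data that leaves 1 DUX library, assumed to vary like the other groups. Scaling to library totals alone was also added after seeing the data. The 1326 interaction calls ranged from 813 (without EV 3) to 2148 (without EV_DOX 1).

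Whether replicate numbers pair the samples is not known, and deviations from means of 3 libraries cannot decide it. Same-numbered DUX_DOX and DUX libraries, which differ in chow, correlated at 0.02, -0.05 and 0.06 in their deviations from the group means. Not every library correlated best with its own number. Same-numbered EV and DUX libraries, which the labels neither give as limbs of 1 animal nor as of different animals, correlated at -0.105, 0.176 and 0.117, and EV_DOX and DUX_DOX at -0.112, 0.0943 and 0.00476. With the number as a replicate block, 3626 genes were called in Dux muscle, 1108 by the interaction and 0 in empty-vector muscle.

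The 5 genes of EV_DOX against EV became 12 with DESeq2's Wald test, 2 with library totals, 1 with upper-quartile factors, 0 with voom (984 at an unadjusted p under 0.05), 0 with the 6 libraries alone (727), and 0 (without EV 2) to 10 (without EV_DOX 1) with single libraries left out.

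Of 172 named genes called, 112 were called under all alternatives, 60 lost the call in at least 1 and 0 reversed. Of those not called, Fst was -0.159 with DUX 1 and DUX 2 left out and -0.063 (without DUX 1) to 0.46 (without DUX 3) with single libraries left out, Trim63 was -0.071 (without DUX 3) to 0.13 (without DUX 2), and Acta1 was 0.041 with library totals. The causes were not tested.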
